A study of Homo sapiens with 6 samples.

Results

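A group of 9 extracellular matrix genes was followed in MDA-MB-231, an established line of human triple-negative breast cancer: COL1A1 and COL5A1 (fibrillar collagens), COL4A1 and COL4A2 (collagen IV of basement membranes), LAMA3, LAMB3 and LAMB1 (laminin chains), FN1 (fibronectin) and FBN1 (fibrillin 1). They were taken by symbol, as rows that name that gene alone, and all 9 had such a row among the 66381 rows of the table. All 9 also reached 1 FPKM (fragments per kilobase of row length, scaled to the library's total count) in at least 3 of the 6 libraries and were tested beside 11260 rows in all. The mimic group held 3 libraries of polyadenylated RNA from transfected cells that received a mimic (a small synthetic duplex that stands in for a natural microRNA), and the control group held 3. The labels give neither oligonucleotide, and the series title names miR-5001-5p. Control libraries are titled minic_nc, which the labels do not spell out, and no time after transfection is given.

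Collagens and laminins are secreted as triple-chain proteins, so the supply of each chain matters for assembly. Collagen I and collagen V build fibrils in the stroma. Collagen IV and laminins form the sheet-like networks of basement membranes, on which epithelial cells rest and which invading carcinoma cells cross. Fibronectin is a glycoprotein that cells assemble into fibrils through integrin receptors, and fibrillin 1 is the main protein of microfibrils, which also hold latent TGF-β.

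The mature microRNA named in the title is given first because its seed defines the match searched in the members. The seed, bases 2 to 8, is in capitals, and the sequence is RefSeq's on GRCh38.p14, 5′ to 3′.
hsa-miR-5001-5p: aGGGCUGGacucagcggcggagcu
The DNA letters that pair with this seed are CCAGCCC. In the 3′ UTR of the coding transcript with the longest coding sequence (GENCODE 29, GRCh38), COL1A1 held 3 matches, COL5A1 held 2, LAMB3 held 1, and COL4A1, COL4A2, LAMA3, LAMB1, FN1 and FBN1 held 0. At least 1 match was present in 20.0% of the 9058 tested genes with such a UTR, at least 2 in 6.56% and at least 3 in 2.43%. These shares take no account of UTR length, which had a median of 1058 bases. The UTR held 2213 bases in COL1A1, 2540 in COL5A1 and 401 in LAMB3. Members without a match had 148 (LAMB1) to 2684 bases (FBN1). The sites of COL1A1, COL5A1 and LAMB3 are shown in windows of 29 bases, read along the transcript, with each match in capitals.
COL1A1 site at UTR base 641: cgggggagccaCCAGCCCctcactgggtt
COL1A1 sites at UTR bases 1092 and 1097: cgtgtgcggctCCAGCCCAGCCCgctgct
COL5A1 site at UTR base 158: ggtgtgggaccCCAGCCCggagagaacag
COL5A1 site at UTR base 293: gggccatgcctCCAGCCCcccagctcgcc
LAMB3 site at UTR base 12: tgctacagcttCCAGCCCgttgccccact
The matches of COL1A1 at UTR bases 1092 and 1097 share 2 bases. The windows lie on the minus strand at chr17:50184844-50184872 and chr17:50184393-50184421 for COL1A1 and at chr1:209615242-209615270 for LAMB3, and on the plus strand at chr9:134842450-134842478 and chr9:134842585-134842613 for COL5A1. A match is a stretch of letters and was not tested as a binding site.

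Libraries held 31643826 to 32363456 counts each. Whether replicates came from separate cultures is not stated in the labels, and p-values measure only the spread between these libraries, which may be technical. VIM, AXL, CAV1 and CD44, markers of this mesenchymal line, were present in every library, VIM at 434 to 571 FPKM. ERBB2 lay at 3.95 to 4.71 FPKM, and ESR1 and PGR were not analysed here. Fibroblasts make many of the same matrix genes. Of 8 fibroblast markers 5 had a row (DCN, PDGFRA and POSTN were not analysed here), and 1 of those, ACTA2, reached 1 FPKM in at least 3 libraries. The summed level of the 5 was 1.47 to 1.79 FPKM in mimic libraries and 1.68 to 2.05 FPKM in control libraries, and LUM and THY1 stayed at or below 0.103 FPKM. Of 6 epithelial markers 1, KRT8, reached that level, with CDH1 at or below 0.101 FPKM. The 3 endothelial markers and the 2 leukocyte markers with a row summed to at most 0.219 and 0.189 FPKM.

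Of the 9 matrix genes, 3 were higher in mimic (FBN1, LAMB1 and LAMB3), 2 were lower (COL1A1 and LAMA3) and 4 did not pass the test (COL4A1, COL4A2, COL5A1 and FN1), by edgeR's quasi-likelihood test with Benjamini-Hochberg adjusted p under 0.05. Across all tested rows 22.3% were called, 13.6% higher and 8.63% lower. Of the called rows 61.2% were higher, and 38.9% when libraries were scaled to total counts in place of TMM, which put the median log2 fold change of all rows at -0.09. The 9 genes ran from -1.18 (COL1A1) to 1.39 (FBN1) in log2 fold change, mimic minus control. Their median was 0.0016, against -0.01 over all tested rows, and their median absolute log2 fold change was 0.23, against 0.19. Larger absolute changes than that of FBN1 were seen in 0.595% of tested rows and larger than that of COL1A1 in 1.14%, while 80.5% exceeded FN1 and 99.5% exceeded COL4A2. In bulk RNA, fewer expressing cells and less RNA per cell cannot be told apart.

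**Figure D1:**
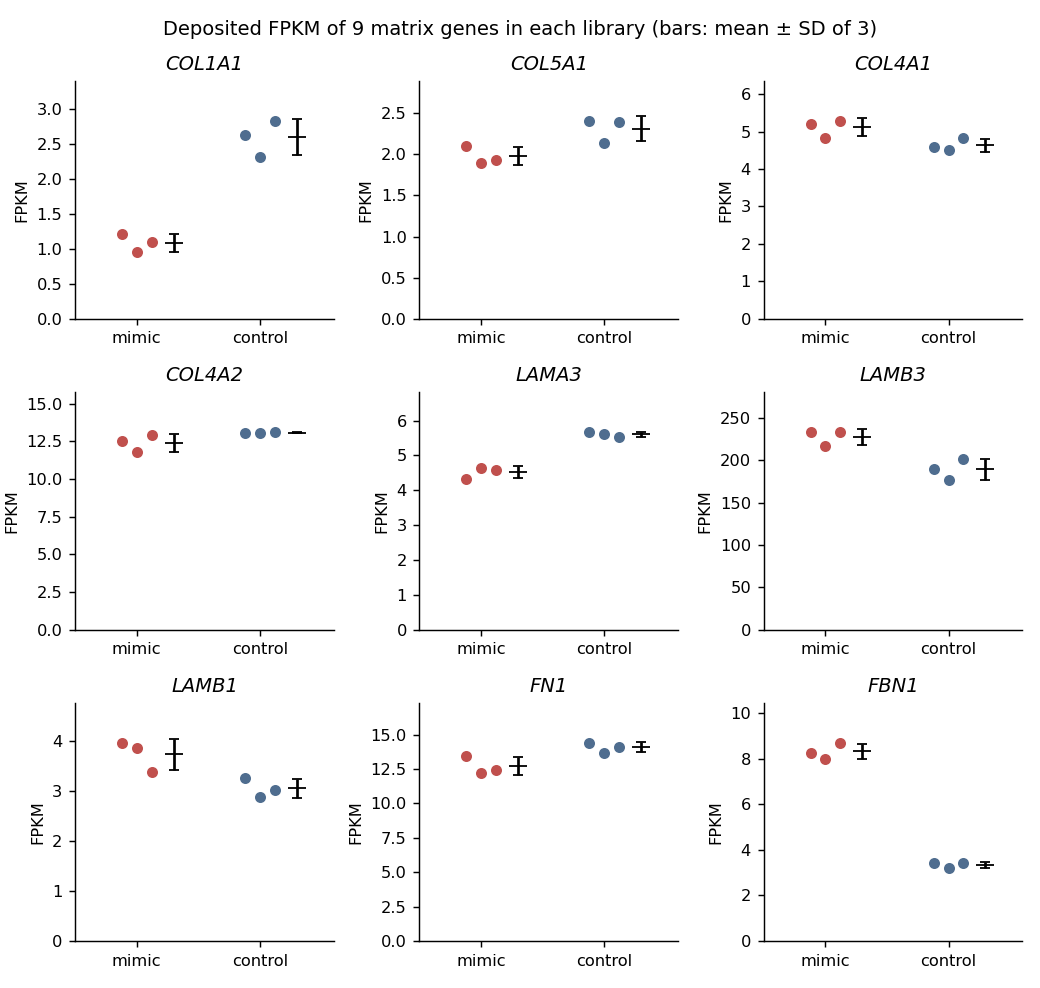
Deposited FPKM of the 9 matrix genes (vertical axes, each from 0) in the 3 mimic and the 3 control libraries; points are libraries and bars mean ± SD. FBN1 sits at 7.998 to 8.69 FPKM in mimic and 3.20 to 3.41 in control, and COL1A1 at 0.954 to 1.21 in mimic and 2.32 to 2.83 in control.

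In deposited FPKM, which is scaled to library totals, the groups did not overlap for any of the 9 genes, where 45.9% of all tested rows also had no overlap. After TMM scaling, which sets libraries to a common level over most genes, 6 of the 9 still had no overlap (42.1% of all tested rows), and COL5A1, COL4A2 and FN1 overlapped. TMM factors were 0.966 to 0.979 in mimic and 1.03 to 1.03 in control libraries, so small fold changes depend on the scaling. The log2 fold change of FN1 was -0.07 with TMM and -0.15 with libraries scaled to totals.

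LAMB3 was by far the most abundant of the 9 genes per length, ranking 89 of 10429 tested single-gene rows by mean FPKM. It made up 81.8 to 82.2% of the summed FPKM of the 9 genes in mimic libraries and 78.9 to 80.3% in control libraries. FN1 (rank 2978) and COL4A2 (rank 3129) followed, at 12.7 ± 0.656 and 12.4 ± 0.591 FPKM in mimic (mean ± SD, n = 3), which overlapped, and at 14.1 ± 0.364 and 13.1 ± 0.0466 FPKM in control. FBN1 averaged 8.31 ± 0.349 FPKM in mimic, above both COL4A1 and LAMA3, and 3.34 ± 0.125 FPKM in control, below both. COL4A1 and LAMA3 also stood in opposite order, with COL4A1 the higher in mimic and LAMA3 the higher in control. LAMB1, COL5A1 and COL1A1 (rank 8936) were lowest. For each of the 9 genes the length behind its FPKM exceeded that of the transcript with the longest coding sequence in GENCODE 29, from 4688 against 4055 bases for LAMB3 to 17315 against 8905 for FN1, so the order of levels depends on the length used.

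COL1A1, the α1 chain of collagen I, was lower in mimic. Its level was 1.21, 0.954 and 1.09 FPKM in mimic libraries and 2.63, 2.32 and 2.83 FPKM in control libraries. Every mimic library lay below every control library. The counts behind these values were 386, 302 and 349 in mimic and 846, 741 and 891 in control. The level was 2.27-fold lower (log2 fold change -1.18, SE 0.13; edgeR adjusted p = 0.00112). The gene (ENSG00000108821) lies on the minus strand of chromosome 17 from 50183289 to 50201632 on GRCh38. COL1A1 is a low gene, and on log2(FPKM + 1) in limma the difference was -0.79 (adjusted p = 0.0021). The partner chain gene COL1A2 was not analysed here, so a ratio of the collagen I chains could not be formed.

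COL5A1 encodes the α1 chain of collagen V, which joins collagen I in fibrils and limits their width. Its level was 2.10, 1.898 and 1.94 FPKM in mimic and 2.41, 2.14 and 2.39 FPKM in control. The mimic libraries lay just below the control libraries, and they overlapped after TMM scaling. The log2 fold change was -0.15 ± 0.09 (edgeR adjusted p = 0.264), with a 95% interval of -0.35 to 0.06. The fall of COL1A1 was outside that interval. COL5A2, the partner chain, averaged under 1 FPKM and was not tested, at 0.430 to 0.619 FPKM in mimic and 0.583 to 1.16 FPKM in control.

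The collagen IV genes COL4A1 and COL4A2 encode the α1 and α2 chains, which join as 2 α1 and 1 α2 in the most widespread collagen IV. The genes lie head to head on chromosome 13, transcribed away from each other. RefSeq puts 126 bases between their starts on GRCh38.p14, at chr13:110307158-110307283. They are shown on the plus strand because they separate both starts in RefSeq and the 2 levels were compared within each library. Capitals mark the letters CCAAT and GGGCGG.
COL4A1 to COL4A2 interval: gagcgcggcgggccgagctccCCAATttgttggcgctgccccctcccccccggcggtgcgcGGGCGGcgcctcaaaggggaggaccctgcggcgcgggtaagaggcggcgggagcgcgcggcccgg
Both motifs were searched on both strands, each occurred once, and they did not overlap each other. In windows of 126 bases just before the start of 27305 genes, CCAAT was present in 21.9%, GGGCGG in 34.6% and both in 7.83%. The interval was 80.2% G and C.

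COL4A1 had 5.21, 4.84 and 5.29 FPKM in mimic libraries and 4.58, 4.50 and 4.84 FPKM in control libraries. Its mimic libraries all lay above the control libraries, the nearest pair by a narrow margin. The log2 fold change was 0.22 ± 0.07 with a 95% interval of 0.05 to 0.38, and the edgeR adjusted p of 0.0661 did not pass; with DESeq2 it was 0.0472 at the same log2 fold change of 0.22. COL4A2 had 12.5, 11.8 and 12.9 FPKM in mimic and 13.06, 13.05 and 13.13 FPKM in control. The control values were nearly equal and the mimic values spread below them. After TMM scaling the groups overlapped and the log2 fold change was 0.0016 ± 0.05 (edgeR adjusted p = 0.987), with a 95% interval of -0.13 to 0.13; with libraries scaled to totals it was -0.077.

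The ratio of COL4A1 to COL4A2 within a library does not depend on how libraries are scaled. It was 0.415, 0.411 and 0.410 in mimic libraries and 0.351, 0.345 and 0.368 in control libraries. The ratio was higher in every mimic library, 1.16-fold on average (log2 difference 0.22), and the 3 mimic values lay within a narrower range than the control values. An exact two-sided permutation test returned p = 0.1, below which a design of 3 against 3 cannot go, and the same value after Benjamini-Hochberg adjustment over 3 ratios. In the table the 2 gene intervals overlap by 1338 bases, from 110305812 to 110307149. The COL4A2 interval there starts before the RefSeq start used above and contains the bases printed between the genes. No source used here says whether counting used strand, and reads in that overlap may have gone to either gene.

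**Figure D2:**
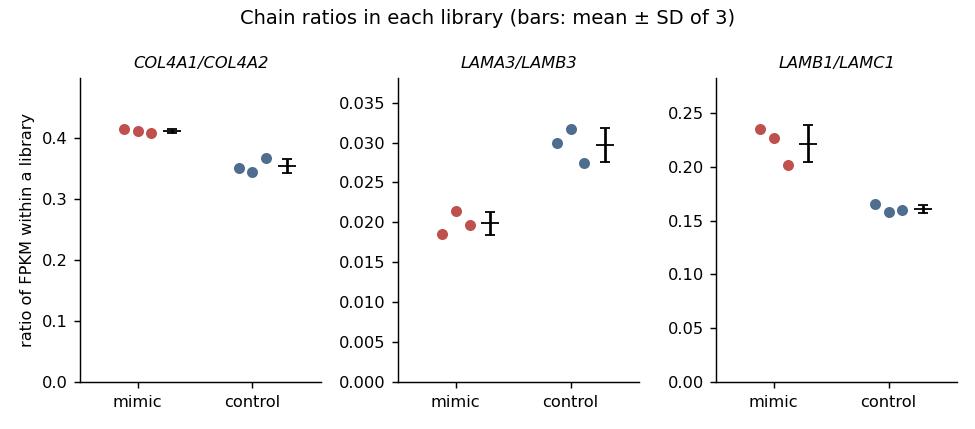
Ratio of FPKM between chains of 1 protein in each library (vertical axes, each from 0), mimic left and control right; points are libraries and bars mean ± SD of 3. The groups are apart in all 3 ratios: COL4A1/COL4A2 and LAMB1/LAMC1 are higher in mimic, and LAMA3/LAMB3 is lower.

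LAMA3 and LAMB3 encode the α3 and β3 chains, which occur together in the laminin that anchors epithelial cells to the basement membrane through hemidesmosomes. LAMB3 rose to 234, 217 and 233 FPKM in mimic libraries, against 189, 177 and 201 FPKM in control libraries. The groups did not overlap, and this was the largest difference of the 9 genes in absolute FPKM. The rise was 1.27-fold (log2 0.35 ± 0.06, edgeR adjusted p = 0.00752).

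LAMA3 moved the other way. Its level was 4.32, 4.64 and 4.58 FPKM in mimic and 5.68, 5.61 and 5.52 FPKM in control. All mimic libraries were lower, with no overlap, and the fall was 1.18-fold (log2 -0.23 ± 0.05, edgeR adjusted p = 0.0238). The call ended without mimic replicate 1 (adjusted p = 0.0661) and without control replicates 1, 2 and 3 (0.0757, 0.0699 and 0.0663), and with no filter on low rows (0.0882), while the log2 fold change stayed between -0.19 and -0.31 in all 15 alternatives. The gene has a long and a short set of transcripts from separate starts, which values per gene cannot tell apart.

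The α3 and β3 chains were also compared as a ratio within each library. LAMA3 over LAMB3 was 0.0185, 0.0214 and 0.0197 in mimic and 0.02997, 0.0317 and 0.0275 in control. Every mimic library lay below every control library, with means of 0.0199 ± 0.00146 in mimic and 0.0297 ± 0.00212 in control (log2 difference -0.58; exact permutation p = 0.1, the smallest possible). Whether RNA levels of the chains are matched by protein was not measured.

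LAMB1 encodes the β1 chain, which pairs with γ1, the product of LAMC1, in the laminins of most basement membranes. Its level was 3.95, 3.85 and 3.37 FPKM in mimic and 3.24, 2.87 and 3.02 FPKM in control. Mimic replicate 3 came close to control replicate 1 but the groups did not overlap. LAMB1 rose 1.29-fold (log2 0.37 ± 0.09, edgeR adjusted p = 0.0276). The call ended without mimic replicates 1 and 2 (adjusted p = 0.0818 and 0.0828) and control replicates 2 and 3 (0.0895 and 0.0835), with libraries scaled to totals (0.0599), and in limma on log2(FPKM + 1), where the log2 difference was 0.22 (0.0752). LAMC1 averaged 16.8 ± 0.133 FPKM in mimic and 18.9 ± 0.730 in control (log2 -0.09 ± 0.05, adjusted p = 0.199; with libraries scaled to totals, -0.17 and 0.0370). The ratio of LAMB1 to LAMC1 was 0.235, 0.227 and 0.202 in mimic and 0.165, 0.158 and 0.160 in control, 1.37-fold higher (exact permutation p = 0.1). In GENCODE 29 the exons of LAMB1 overlap those of DLD, on the other strand, by 70 bases; DLD had 3153 to 4082 counts and a log2 fold change of 0.23 ± 0.08 (edgeR adjusted p = 0.0696), and its part in the LAMB1 value was not tested.

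FN1 encodes fibronectin. Its level was 13.5, 12.2 and 12.4 FPKM in mimic and 14.4, 13.7 and 14.1 FPKM in control. The highest mimic library lay just under the lowest control library, and the groups overlapped after TMM scaling. The log2 fold change was -0.07 ± 0.05 (edgeR adjusted p = 0.357), with a 95% interval of -0.19 to 0.05. With 6759 to 8070 counts a library, a change as large as that of LAMB3 lay outside that interval.

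FBN1 changed most of the 9 genes. Its level was 8.25, 7.998 and 8.69 FPKM in mimic libraries and 3.41, 3.20 and 3.41 FPKM in control libraries. The groups were far apart, on 4094 to 4490 counts in mimic and 1649 to 1774 in control. The rise was 2.63-fold (log2 1.39 ± 0.06, edgeR adjusted p = 5.34e-05). The gene (ENSG00000166147) lies on the minus strand of chromosome 15 from 48408306 to 48645849 on GRCh38. Its 3′ UTR of 2684 bases held 0 matches to the seed of miR-5001-5p. Of the other called genes, LAMB1 (higher) and LAMA3 (lower) also held 0, LAMB3 (higher) held 1 and COL1A1 (lower) held 3. Whether matches and fold changes are related was not tested.

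**Figure D3:**
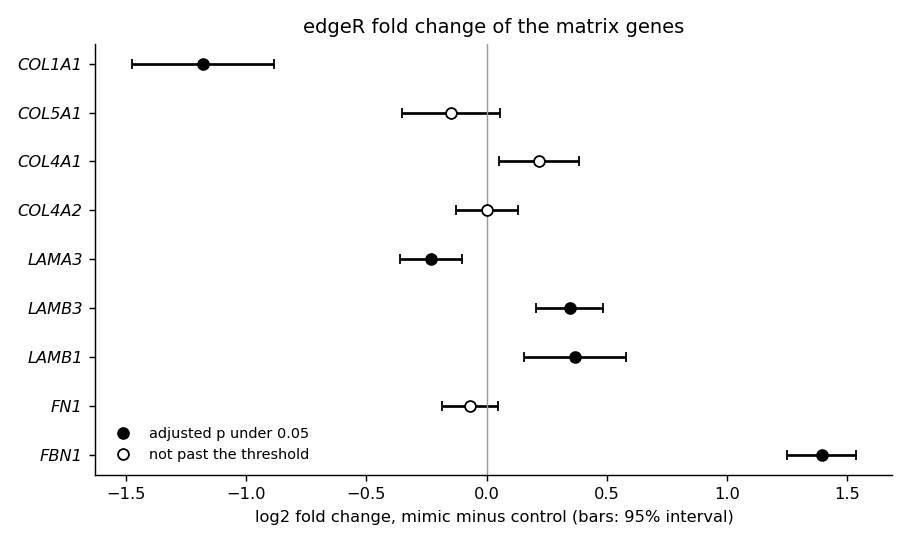
Log2 fold change of each gene in edgeR, mimic minus control (horizontal axis), with the 95% interval; filled points passed an adjusted p of 0.05. FBN1 at 1.39 and COL1A1 at -1.18 stand apart from the other 7, which lie between -0.23 and 0.37.

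Of 17 other microfibril and elastic fibre genes listed, 4 had a row that passed the filter, and 0 passed the test by edgeR or DESeq2 (1 had an unadjusted edgeR p under 0.05): LTBP1, which tethers latent TGF-β to microfibrils, had a log2 fold change of 0.08 ± 0.07, LTBP4 -0.13 ± 0.05, MFAP2 0.04 ± 0.16 and EFEMP1 0.0025 ± 0.12 (edgeR adjusted p = 0.122 to 0.991). FBN2 was not analysed here. Of 32 other collagen genes listed, 7 were tested and 0 passed by edgeR or DESeq2, with COL6A1 (log2 -0.15 ± 0.06, adjusted p = 0.108) and COL18A1 (0.32 ± 0.11, adjusted p = 0.092) nearest to the threshold among them, both named after their values were seen. At an unadjusted edgeR p under 0.05 there were 2 of the 7. Of 8 laminin genes kept in the list of further chains, 4 were tested and 0 passed by edgeR or DESeq2, with 0 at an unadjusted p under 0.05. Of 4 other basement membrane genes tested, PXDN, which encodes a peroxidase that crosslinks collagen IV, rose 1.31-fold to 35.7 ± 0.582 FPKM in mimic, against 28.6 ± 0.383 in control (log2 0.39 ± 0.04, adjusted p = 0.000732). In that list 2 genes had an unadjusted edgeR p under 0.05, and DESeq2 called both. The second, FRAS1, encodes a protein of epithelial basement membranes and was named after its value was seen; it had 4.76 ± 0.595 FPKM in mimic and 6.12 ± 0.222 in control. Its log2 fold change was -0.28 ± 0.09, with an adjusted p of 0.0664 in edgeR and 0.0331 in DESeq2. It also passed with libraries scaled to totals (0.0302), in limma on log2(FPKM + 1) (0.0417) and without mimic replicate 1 (0.0224). Over rows of at least 5 FPKM FRAS1 passed too (0.0454). It met that filter only through control libraries, at 5.93 to 6.36 FPKM, against 4.21 to 5.39 FPKM in mimic. Of 2 matricellular genes tested, TNC and ECM1, 0 passed in edgeR or DESeq2, and 0 had an unadjusted p under 0.05.

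Over these 7 lists of matrix proteins, 1 of 21 tested genes was higher and 0 lower in edgeR, with a median log2 fold change of 0.00057. That is 4.76% called, against 22.3% of all tested rows. DESeq2 called 2 of the 21, and 5 had an unadjusted edgeR p under 0.05. Whether the lists differ from all tested rows was not tested. The lists hold 82 genes, and 61 of them did not reach the filter or had no row of their own. Of 14 tested receptors of these proteins, 6 were higher and 1 lower, with a median log2 fold change of 0.21; whether they differ from the matrix lists was not tested. ITGB1, which encodes the integrin β1 chain shared by receptors for collagen, laminin and fibronectin, rose 2.08-fold (log2 1.06 ± 0.10, edgeR adjusted p = 0.000718). ITGA2, the collagen and laminin binding α2 chain, rose 1.88-fold (0.91 ± 0.17, edgeR adjusted p = 0.00975) and ITGAV 1.46-fold (0.54 ± 0.05, adjusted p = 0.000575). DDR2, a receptor kinase for fibrillar collagen, rose 1.52-fold (0.60 ± 0.12, edgeR adjusted p = 0.0145). It reached 1 FPKM only in mimic libraries, at 1.05 to 1.27 FPKM, against 0.739 to 0.878 FPKM in control. DDR2 thus met the filter only through the group where it was higher. With no filter on low rows its edgeR adjusted p was 0.0183. ITGA5, whose product pairs with integrin β1 as the main fibronectin receptor, rose 1.19-fold (0.25 ± 0.06, adjusted p = 0.0329). ITGB5, whose product pairs with the αV chain and which was named after its value was seen, rose 1.18-fold (0.24 ± 0.06, adjusted p = 0.0398). BCAM, which binds the laminin α5 chain and was named after its value was seen as the 1 lower receptor, was lower (log2 -0.32 ± 0.09, adjusted p = 0.0369). The calls of ITGA5, ITGB5 and BCAM ended in 4, 6 and 6 of the 6 fits that left out a library (adjusted p up to 0.108, 0.119 and 0.113), and that of DDR2 in 2 of 6, without control replicates 2 and 3 (0.0511 and 0.0561). With libraries scaled to totals ITGA5 (0.0905) and ITGB5 (0.107) did not pass, and in limma on log2(FPKM + 1) ITGA5 (0.0985), ITGB5 (0.111) and DDR2 (0.0631) did not.

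**Figure D4:**
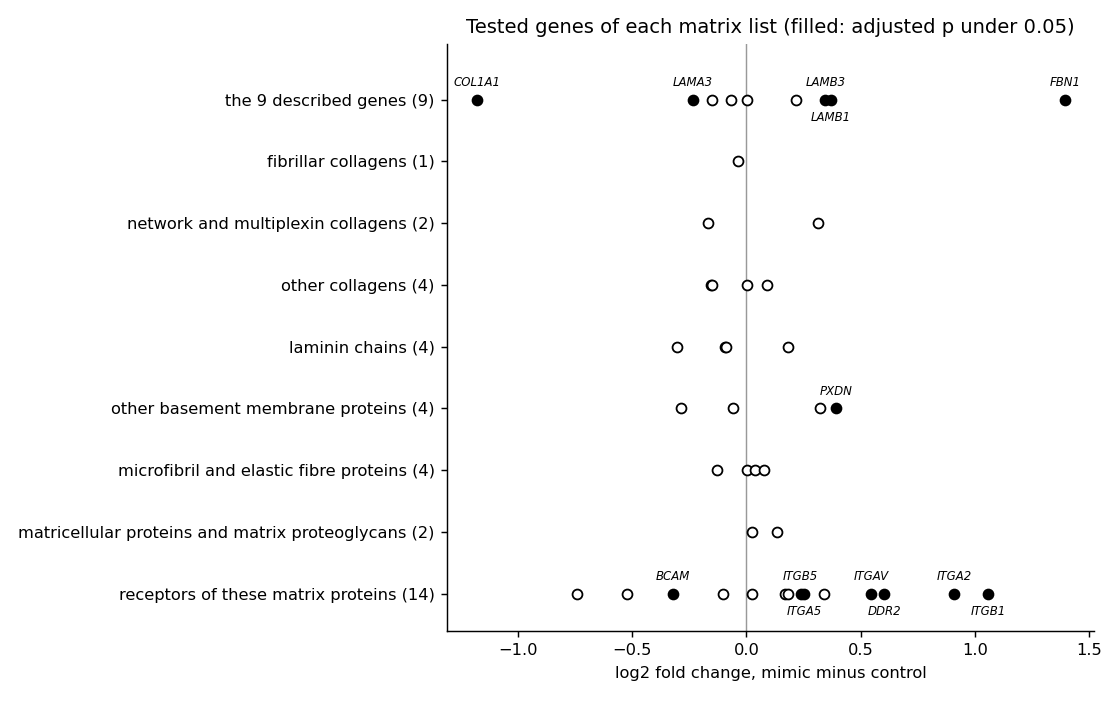
Log2 fold change, mimic minus control (horizontal axis), of the tested genes in each matrix list (rows, with the number tested); filled points passed an adjusted p of 0.05 in edgeR. Filled points other than those of the 9 genes are PXDN and 7 receptor genes.

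Across the 6 libraries the single-gene row most like FBN1 in log2 CPM (counts scaled to the library) was EIF3J (Pearson r = 0.999, log2 fold change 1.35), and the row most like COL1A1 was CLPTM1 (r = 0.999, log2 fold change -0.51). The closest rows to the other genes were FGF23 for COL5A1, VEZF1 for COL4A1, NUBP2 for COL4A2, SUCLG2 for LAMA3, SERPINE2 for LAMB3, GFM2 for LAMB1 and MARCH9 for FN1, at r from 0.990 to 0.998. These values are descriptive: with 6 libraries that share the group difference, 12.3% of single-gene rows reached an r above 0.9 with FBN1 and 7.78% with COL1A1, but 0.557% with COL4A2.

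**Figure D5:**
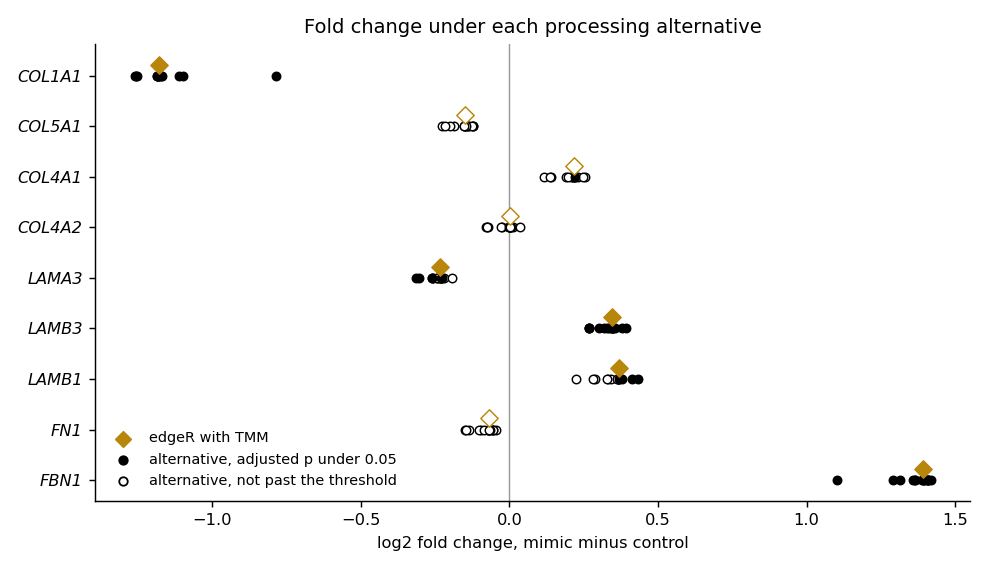
Log2 fold change of each gene, mimic minus control (horizontal axis), under edgeR with TMM (diamonds) and under 14 or 15 processing alternatives (circles); filled symbols passed an adjusted p of 0.05. FBN1, COL1A1 and LAMB3 are filled throughout, LAMA3 and LAMB1 are filled in part, and COL4A2 sits on both sides of 0.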

How the data were processed

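RNA-seq values of 6 libraries came from 1 deposited table that, per the file headers, holds counts and FPKM by gene. The submitters' processing notes name cutadapt 1.9, FastQC and the build GRCh38 (hg38); for aligner, counter, annotation release and strand, the entry is: not given in the sources used here. The authors' deposited FPKM equal the deposited raw counts divided by the library total and by a length that is a whole number and the same in every library. The 38792 rows that name no gene (2.46 to 2.70% of counts) stayed out of library sizes and tests; 1248 rows name several genes and were tested.

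Counts were tested with edgeR 4.0.16 (R 4.3.3; glmQLFit, glmQLFTest, TMM) on 11260 rows with at least 1 FPKM in at least 3 libraries, two-sided, with Benjamini-Hochberg adjustment over all of them. SE is the log2 fold change's size over the square root of F, and intervals are 95%. The script was tested on simulated data. Chain ratios (3) were tested by exact permutation in scipy 1.17.1. Alternatives used DESeq2 1.42.0, limma 3.58.1 on log2(FPKM + 1) and log2(FPKM + 0.1), other scalings and filters, the replicate number as a block, and each library left out. Members, lists and tests were chosen with earlier results of these data known. A planned item is not reported here, and list counts and ratios leave it out. The text names the 9 members, by rule up to 4 passing genes a list by p, assembly partners (ITGA5 and ITGB1 among them) and the row most like each member; BCAM, ITGB5, FRAS1, COL6A1, COL18A1 and the non-passing microfibril and matricellular genes were named outside that rule, after their values were seen. Sequences came from RefSeq tables and GENCODE 29 transcripts. Tables and figures were made with Python 3.11.15, pandas 2.3.3 and matplotlib 3.10.9.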

Additional observations from a re-analysis of the deposited data

How the results depend on the processing

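Among the 9 genes, the number called higher stayed at 2 to 4 over the 15 alternatives, against 3, and FBN1, COL1A1 and LAMB3 kept direction and call in all that tested them. FBN1 reached 5 FPKM only in mimic libraries, so it met the filter of at least 5 FPKM only through the group where it was higher. Of the 2 lower genes, COL1A1 alone remained with no filter and with the replicate block. Over rows of at least 5 FPKM, which drop COL1A1, LAMA3 alone remained. LAMA3 reached 5 FPKM only in control libraries, so it met that filter only through the group where it was higher. The number called lower was 1 to 2 when 1 library was left out. COL4A2, near 0, changed sign with libraries scaled to totals (log2 -0.077), over rows of at least 5 FPKM (-0.025), over rows naming 1 gene (-0.0017), without mimic replicate 3 (-0.030) and control replicate 1 (-0.0016), and in limma (-0.071 and -0.076); without 1 library it spanned -0.030 to 0.036. Over all rows the lower count of 972 was 1783 with libraries scaled to totals, 1707 and 1680 in limma on log2(FPKM + 1) and log2(FPKM + 0.1), and 503 to 854 without 1 library; 61.2% of called rows were higher, but 38.9% with scaling to totals and 39.8 and 39.9% in limma. Over the matrix and receptor lists together, 7 other genes were called higher, 6 of them receptors. That count was 4 in both limma fits and 4 to 6 without 1 library. Among the fits without 1 library, the lowest count came without control replicate 2 and without control replicate 3. In the same lists 1 gene was called lower, the receptor BCAM. That count was 5 with libraries scaled to totals, 4 and 4 in limma, 3 over rows of at least 5 FPKM and 2 in DESeq2. BCAM and FRAS1 were among the 3 over rows of at least 5 FPKM. Both met that filter only through control libraries, where they were higher. The count of lower genes was 0 with no filter, 0 with the replicate block and 0 to 2 without 1 library. The causes of these shifts were not tested. The 3 chain ratios kept their direction in raw counts and with each library left out, but these alternatives could not have changed it. Raw counts give the same log2 difference, because the length of a row is the same in every library. Leaving out 1 library cannot reverse groups that do not overlap.

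Same-numbered libraries did not deviate together (r = -0.0086, 0.06 and -0.05), so the numbers were not taken to pair them. With the replicate block 1250 rows were higher and 672 lower, FBN1, COL1A1 and LAMB3 kept their calls, and LAMA3 (adjusted p = 0.0599) and LAMB1 (0.0514) lost theirs. COL1A1, with 302 to 891 counts, is the thinnest measurement of the 9.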
